A study of Caenorhabditis elegans with 8 samples.

Results

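The 10 genes described here belong to glutathione synthesis, glutathione and thioredoxin reduction, and peroxide removal in Caenorhabditis elegans: gcs-1, gss-1, gsr-1, trxr-1, trxr-2, trx-1, trx-2, prdx-2, prdx-3 and prdx-6. They were taken by symbol from a fixed list, and all 10 were found among the 46928 gene rows of each count file. The study set skn-1gf(lax188) animals, which carry a gain-of-function allele of the transcription factor gene skn-1, against wild-type N2 animals, with 4 RNA-seq libraries of each genotype labelled as biological replicates. About 250000 synchronised L4 larvae grown at 20 °C were dissociated per the labels' protocols. Animals of both genotypes carried daf-7p::gfp, a reporter whose promoter drives expression mainly in the ASI chemosensory neurons, and cells were sorted by flow cytometry. The labels say no more of the replicates' origin, so p-values measure the spread between these libraries only.

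Glutathione is a small thiol that is built from glutamate, cysteine and glycine, donates electrons to peroxidases and transferases, and is returned to its reduced form by glutathione reductase with NADPH. Thioredoxins are small proteins that reduce disulfides in other proteins, and thioredoxin reductases recharge them, also with NADPH. Peroxiredoxins remove hydrogen peroxide with a reactive cysteine that thioredoxin commonly restores. In C. elegans SKN-1, the relative of the mammalian NRF proteins, is known to activate genes of this defence, and gcs-1 is among its best-known targets.

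Gene counts ran from 2976889 to 9680840 in skn-1gf libraries and from 5475892 to 10740970 in wild-type libraries. The 10 genes together took 0.0921 to 0.115% of protein-coding counts in skn-1gf and 0.0828 to 0.107% in wild type. Wild-type replicate 2 stood apart on the first principal component, at 202.2 against −88.34 to 18.16 for the other libraries, and its values are therefore given separately below. The 7 ASI markers summed to 10.8 to 168 CPM (counts scaled to a common library size after TMM normalisation) in skn-1gf and 10.3 to 25.1 CPM in wild type. The largest means were those of daf-28 (48.1 CPM in skn-1gf and 9.1 CPM in wild type) and daf-7 (20.3 and 4.56 CPM). The means of ins-6 were 7.85 and 0.998 CPM, of gpa-4 2.24 and 1.93 CPM, and of gpa-5 1.37 and 0.949 CPM. Counts of str-3 came from wild-type replicate 2 alone (39), and counts of str-2 from skn-1gf replicate 4 alone (3). The groups overlapped for all 7. The 8 body wall muscle markers summed to 5909 to 26500 CPM in skn-1gf and 9385 to 20500 CPM in wild type, and the 10 germline markers to 3619 to 6107 and 3776 to 6202 CPM. The levels below therefore cannot be placed in ASI neurons. In such bulk libraries, fewer cells of a type and less RNA per cell cannot be told apart.

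Of the 10 genes, 9 passed the low-count filter and trx-1 did not. None of the 9 was called by edgeR's quasi-likelihood test, which gave each an adjusted p of 0.999989 over the 12734 genes tested. That test called 0 of all genes (0%), and DESeq2 and limma-voom also called 0 of the 9. At an unadjusted p under 0.05 there was 1 of the 9, gcs-1, beside 4.07% of all genes tested. Of the log2 fold changes of skn-1gf over wild type, 4 of the 9 were above 0 and 5 below, beside 53.7% and 46.3% of all genes, and their median was −0.03, beside 0.04 over all genes tested. The single gene with every skn-1gf library above every wild-type library was also gcs-1, beside 1.01% of all genes, and none had every skn-1gf library below, beside 1.15% of all genes.

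The gene gcs-1 (CELE_F37B12.2, chromosome II) encodes the catalytic subunit of glutamate-cysteine ligase, which limits the rate of glutathione synthesis. It was at 175, 117, 90.2 and 87.6 CPM in skn-1gf replicates 1 to 4, against 73.1, 79.5, 74.1 and 79.4 CPM in wild-type replicates 1 to 4. The groups did not overlap, with skn-1gf replicate 1 far above the rest and replicates 3 and 4 only a little above the wild-type libraries. The wild-type libraries lay close together, with a coefficient of variation of 4.46% against 34.7% in skn-1gf. The means were 117.5 ± 40.7 CPM in skn-1gf and 76.5 ± 3.42 CPM in wild type (SD, n = 4 each), a difference of 1.54-fold (log2 fold change 0.62, SE 0.28, 95% confidence interval (CI) 0.0015 to 1.24). Its unadjusted edgeR p of 0.0495 ranked at position 508 among all 12734 genes, and it did not pass the test (adjusted p = 0.999989). Over 18 alternative settings its log2 fold change ran from 0.40 (without skn-1gf replicate 1) to 0.74, was positive in all 18, and was 0.62 without wild-type replicate 2.

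**Figure D1:**
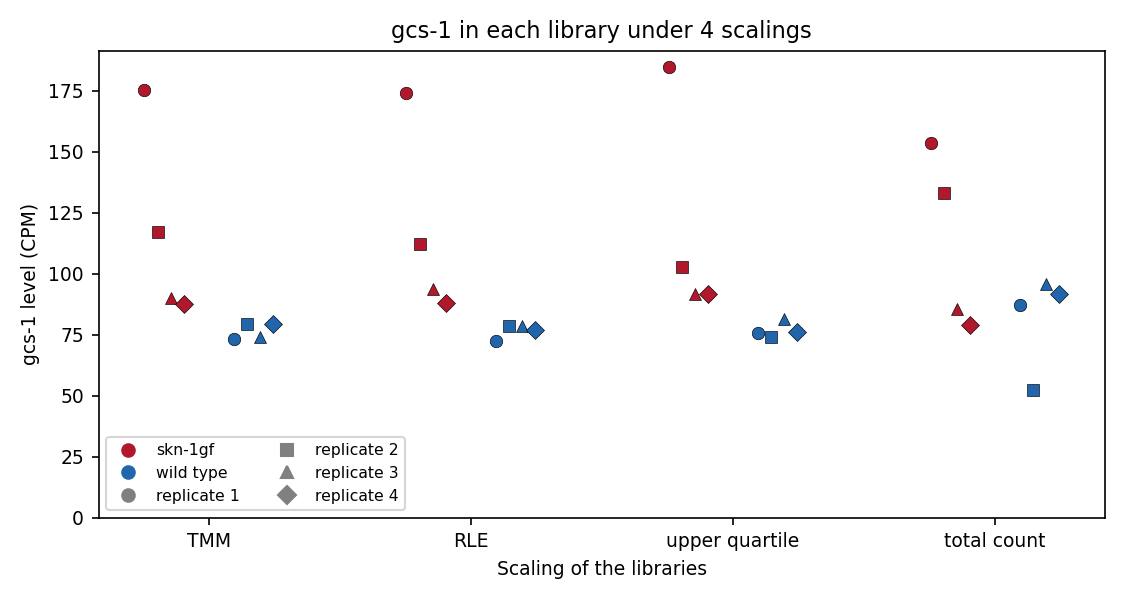
Level of gcs-1 in CPM (vertical axis, from 0) in each skn-1gf library (red) and wild-type library (blue), under 4 ways of scaling the libraries (horizontal axis); symbols mark the replicate number. The genotypes are separated under TMM, RLE and upper-quartile scaling, and overlap with total-count scaling, where skn-1gf replicates 3 and 4 lie at 85.7 and 78.9 CPM.

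The separation of gcs-1 depended on how the libraries were scaled, as the plot of its level under 4 scalings shows. With total counts alone it was at 154, 133, 85.7 and 78.9 CPM in skn-1gf replicates 1 to 4, against 87.0, 52.3, 96.0 and 91.7 CPM in wild-type replicates 1 to 4. Replicates 3 and 4 of skn-1gf then lay below all wild-type libraries other than replicate 2. That scaling also moved the median log2 fold change of all genes to −0.12, and gcs-1 was at 0.47. Relative to gsr-1 in the same library, which needs no scaling, the ratio of counts per coding length of gcs-1 was 0.736, 0.588, 0.511 and 0.526 in skn-1gf replicates 1 to 4, against 0.445, 0.276, 0.576 and 0.419 in wild-type replicates 1 to 4. On this ratio the groups overlapped through wild-type replicate 3.

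The next enzyme, glutathione synthetase, is encoded by gss-1 (CELE_M176.2, chromosome II) and adds glycine to the product of the gcs-1 enzyme. It was at 62.1, 60.9, 40.0 and 33.7 CPM in skn-1gf replicates 1 to 4, against 42.6, 2.69, 45.1 and 61.5 CPM in wild-type replicates 1 to 4. The groups overlapped, and wild-type replicate 2 was low with 17 counts, where the other wild-type libraries had 318 to 759. The means were 49.2 ± 14.5 CPM in skn-1gf and 37.96 ± 24.96 CPM in wild type (log2 fold change 0.37, SE 0.64, 95% CI −1.03 to 1.77). Without wild-type replicate 2 the log2 fold change was −0.03. Per coding length the ratio of gcs-1 to gss-1 was 2.11, 1.44, 1.69 and 1.95 in skn-1gf replicates 1 to 4, against 1.29, 22.2, 1.23 and 0.968 in wild-type replicates 1 to 4. The 4 skn-1gf ratios lay above those of wild-type replicates 1, 3 and 4 and below that of replicate 2, a description with no test.

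Among the reductases, gsr-1 (CELE_C46F11.2, chromosome III) encodes glutathione reductase. It was at 172, 144, 127.5 and 120.5 CPM in skn-1gf replicates 1 to 4, against 119, 208.5, 93.1 and 137 CPM in wild-type replicates 1 to 4. The skn-1gf libraries lay within the range of the wild-type libraries. The means were 141.0 ± 22.9 CPM in skn-1gf and 139 ± 49.5 CPM in wild type (log2 fold change 0.02, SE 0.29, 95% CI −0.62 to 0.65), and the log2 fold change was 0.26 without wild-type replicate 2. Its sign turned in 5 of the 18 alternatives.

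The thioredoxin reductase gene trxr-1 (CELE_C06G3.7, chromosome IV) encodes the cytosolic enzyme, a selenoprotein in C. elegans that acts together with gsr-1 in moulting. It was at 110.5, 166, 96.0 and 121 CPM in skn-1gf replicates 1 to 4, against 122.03, 154, 117 and 112 CPM in wild-type replicates 1 to 4. The groups overlapped, and the libraries numbered 2 were the highest of each genotype. The log2 fold change was −0.03 (SE 0.26, 95% CI −0.60 to 0.54), the narrowest interval of the 9 genes, and 0.07 without wild-type replicate 2. In fold terms this interval runs from 0.657 to 1.45, so a 2-fold difference in either direction lies outside it. The ratio of gsr-1 to trxr-1 per coding length averaged 1.67 ± 0.444 in skn-1gf and 1.53 ± 0.350 in wild type, with overlap.

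The mitochondrial thioredoxin reductase gene trxr-2 (CELE_ZK637.10, chromosome III) was at 14.0, 15.9, 6.42 and 6.36 CPM in skn-1gf replicates 1 to 4, against 12.98, 11.7, 12.2 and 14.0 CPM in wild-type replicates 1 to 4. The skn-1gf libraries formed a higher pair (replicates 1 and 2) and a lower pair (replicates 3 and 4, with 22 and 17 counts), and the wild-type libraries lay between these pairs, apart from a near tie of wild-type replicate 4 with skn-1gf replicate 1. The coefficient of variation was 46.9% in skn-1gf against 7.91% in wild type. The log2 fold change was −0.25 (SE 0.58, 95% CI −1.51 to 1.02) and −0.29 without wild-type replicate 2. Replicates 3 and 4 of skn-1gf were also the shallowest libraries, at 3622318 and 2976889 gene counts. The part of depth in this split was not tested.

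The thioredoxin gene trx-1 (CELE_B0228.5, chromosome II) is known in C. elegans for its expression in the ASJ pair of sensory neurons. It was close to the limit of detection, with 0, 0, 2 and 1 counts in skn-1gf replicates 1 to 4, against 5, 0, 5 and 14 counts in wild-type replicates 1 to 4. Wild-type replicate 2 and skn-1gf replicates 1 and 2 thus shared a count of 0, which allows up to 0.474, 0.355 and 0.405 CPM in these libraries. Summed over libraries there were 3 counts in skn-1gf and 24 in wild type, a ratio of 0.200 per scaled library size (95% exact interval 0.0385 to 0.659, counting error only, with no account of the spread between libraries). The other ASJ markers, ssu-1 and gpa-9, summed to 2.702 to 8.64 CPM in skn-1gf and 0.474 to 4.79 CPM in wild type. Most of this sum was gpa-9, with means of 4.49 CPM in skn-1gf and 2.29 CPM in wild type. For ssu-1 there were 1, 3, 6 and 0 counts in skn-1gf replicates 1 to 4, against 10, 0, 3 and 17 in wild-type replicates 1 to 4. Both markers overlapped between the genotypes. Of the annotated exon bases of trx-1, 14.9% overlap those of cpna-2 on the opposite strand, and the strand setting of the counting is not given in the sources used here, so some of these few counts may belong to either gene.

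The mitochondrial thioredoxin gene trx-2 (CELE_B0024.9, chromosome V) was at 28.6, 38.6, 16.6 and 25.1 CPM in skn-1gf replicates 1 to 4, against 31.6, 22.1, 26.7 and 51.8 CPM in wild-type replicates 1 to 4. The groups overlapped, with wild-type replicate 4 at the top and skn-1gf replicate 3 at the bottom. The log2 fold change was −0.28 (SE 0.43, 95% CI −1.204 to 0.65). It was −0.43 without wild-type replicate 2 and 0.03 without wild-type replicate 4. The exons of trx-2 share 9.004% of their bases with asps-1 on the opposite strand, and for gsr-1 and trxr-2 such overlaps take 5.86 and 6.69%.

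Of the peroxiredoxins, prdx-2 (CELE_F09E5.15, chromosome II) encodes the cytosolic enzyme and was the most abundant of the 10 transcripts per coding length. It was at 305.5, 241, 323 and 275.5 CPM in skn-1gf replicates 1 to 4, against 187, 299, 130.3 and 237 CPM in wild-type replicates 1 to 4. The skn-1gf libraries were all above wild-type replicates 1, 3 and 4, and wild-type replicate 2 lay among them. The means were 286 ± 35.9 CPM in skn-1gf and 213 ± 71.8 CPM in wild type, a difference of 1.34-fold (log2 fold change 0.43, SE 0.29, 95% CI −0.21 to 1.06). Without wild-type replicate 2 the log2 fold change was 0.62 and the groups no longer overlapped, and it was 0.70 once both libraries numbered 2 were dropped. Separation is easier by chance with fewer libraries, and the share of all genes separated in these settings was not counted. The log2 fold change of prdx-2 was positive in all 18 alternatives and passed the test in none of them.

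The mitochondrial peroxiredoxin gene prdx-3 (CELE_R07E5.2, chromosome III) was at 134, 118.5, 85.5 and 115 CPM in skn-1gf replicates 1 to 4, against 84.3, 238, 50.2 and 102 CPM in wild-type replicates 1 to 4. Both the highest and the lowest library were wild type, and the skn-1gf libraries lay between them. The log2 fold change of −0.07 (SE 0.41, 95% CI −0.97 to 0.83) rested on wild-type replicate 2, without which it was 0.52. The ratio of prdx-2 to prdx-3 per coding length was 2.57, 2.29, 4.25 and 2.696 in skn-1gf replicates 1 to 4, against 2.49, 1.41, 2.92 and 2.62 in wild-type replicates 1 to 4. The cytosolic transcript was thus above the mitochondrial one in all 8 libraries.

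The peroxiredoxin gene prdx-6 (CELE_Y38C1AA.11, chromosome IV), whose mammalian relative uses a single reactive cysteine and glutathione, was at 13.8, 22.8, 9.04 and 14.2 CPM in skn-1gf replicates 1 to 4, against 17.3, 11.7, 15.2 and 25.0 CPM in wild-type replicates 1 to 4. The groups overlapped. Like trx-2, prdx-6 was highest in wild-type replicate 4 and skn-1gf replicate 2 and lowest in skn-1gf replicate 3. The log2 fold change was −0.21 (SE 0.52, 95% CI −1.34 to 0.93), −0.35 without wild-type replicate 2 and −0.64 once both libraries numbered 2 were dropped. In that last setting every remaining skn-1gf library lay below every remaining wild-type library. Fewer libraries separate more easily by chance, and the share of all genes separated there was not counted.

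**Figure D2:**
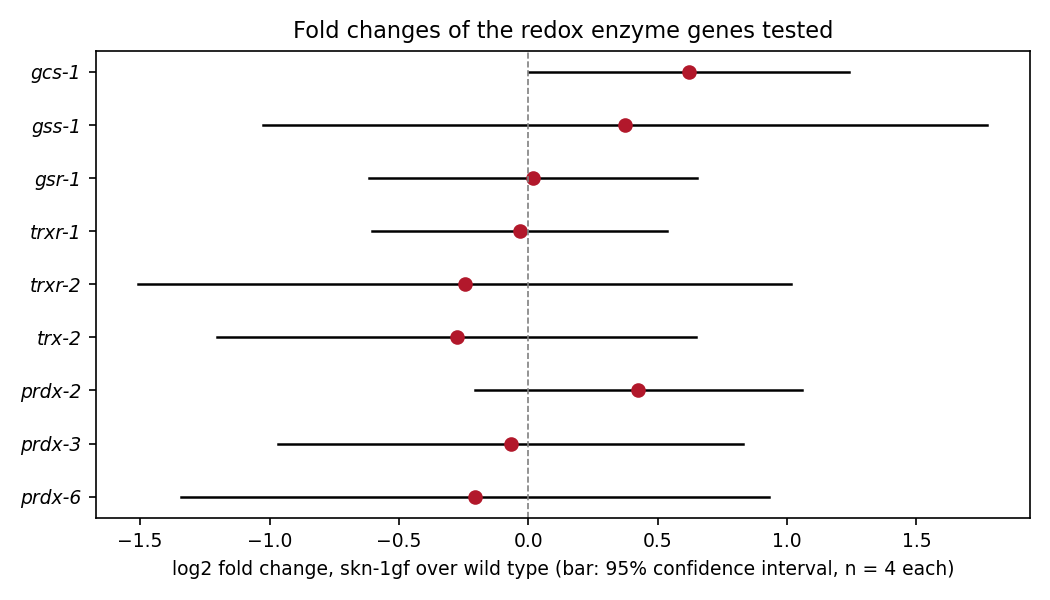
Log2 fold change of skn-1gf over wild type (horizontal axis) for the 9 redox enzyme genes that passed the low-count filter; points are edgeR estimates and bars are 95% CIs over 4 libraries of each genotype. The interval of gcs-1 begins at 0.0015 and the intervals of the other 8 genes span 0.

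The half-width of the 95% CI ran from 0.57 (trxr-1) to 1.40 (gss-1) on the log2 scale over the 9 genes, beside a median of 1.44 over all genes tested. The plot of fold changes shows gcs-1, prdx-2 and gss-1 to the right of 0, and trx-2, trxr-2 and prdx-6 to the left. None of these values passed the test.

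**Figure D3:**
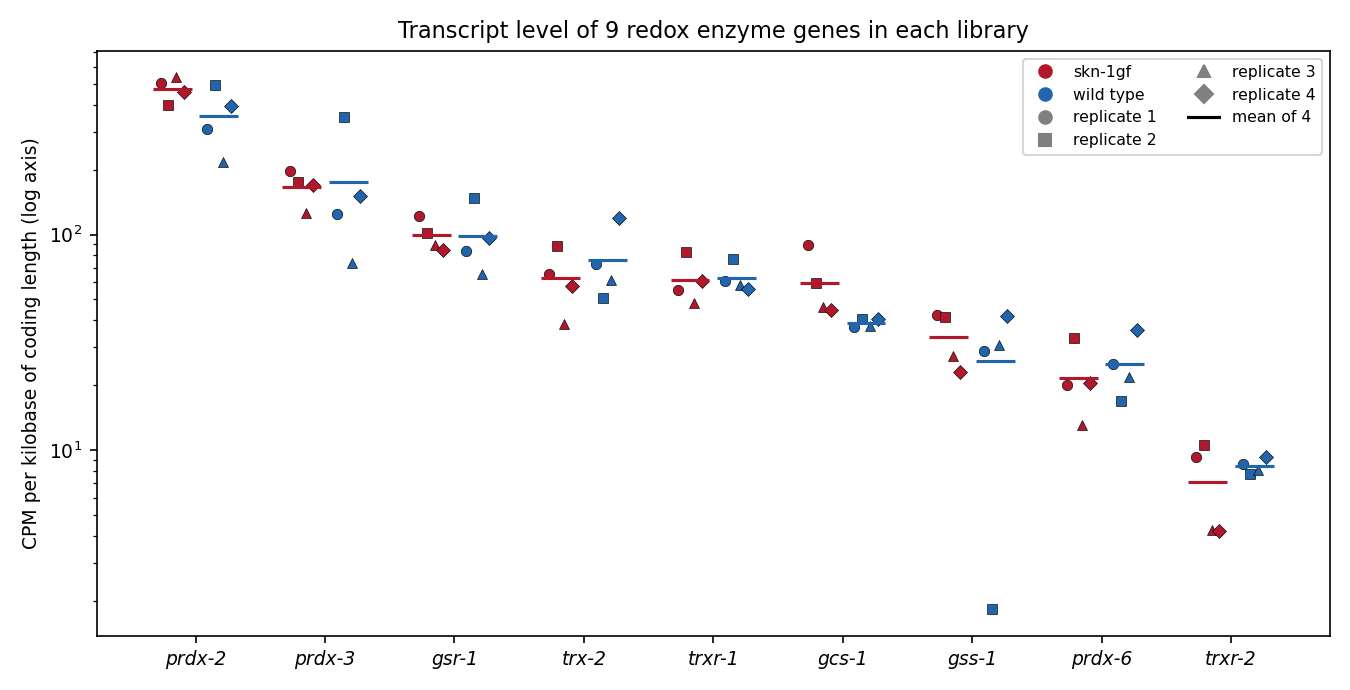
CPM per kilobase of coding length (vertical log axis) of 9 redox enzyme genes in each library, ordered by their skn-1gf mean; skn-1gf libraries are red, wild-type libraries blue, symbols mark the replicate number and horizontal lines are means of 4. Levels fall from 475 and 354 for prdx-2 to 7.07 and 8.43 for trxr-2 in skn-1gf and wild type, and the wild-type replicate 2 value of gss-1 lies at 1.83.

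Per kilobase of coding length, the order of mean levels was the same in both genotypes, from prdx-2 through prdx-3, gsr-1, trx-2, trxr-1, gcs-1, gss-1, prdx-6 and trxr-2 to trx-1. The level of prdx-2 was 475 ± 59.6 CPM per kilobase in skn-1gf and 354 ± 119 in wild type, and that of prdx-3 was 167 ± 29.7 in skn-1gf and 175 ± 121.8 in wild type. Within skn-1gf the ranges of prdx-2, prdx-3 and gsr-1 did not overlap from one to the next, while that of gsr-1 overlapped the range of trx-2. The middle of the order was close, since trx-2, trxr-1 and gcs-1 averaged 62.6, 61.7 and 59.9 CPM per kilobase in skn-1gf with overlapping ranges. In wild type trx-2 was at 76.0, trxr-1 at 63.2 and gcs-1 at 39.0 CPM per kilobase, and the wild-type ranges of trxr-1 and gcs-1 did not overlap. At the lower end trxr-2 was at 7.07 ± 3.32 CPM per kilobase in skn-1gf and 8.43 ± 0.667 in wild type. The ratio of trxr-1 to trxr-2 was 5.97 to 14.4 over skn-1gf libraries and 6.04 to 9.96 over wild-type libraries, so the cytosolic reductase transcript was above the mitochondrial one in every library. These levels rest on 1 coding length for each gene and on reads that map to a single place.

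**Figure D4:**
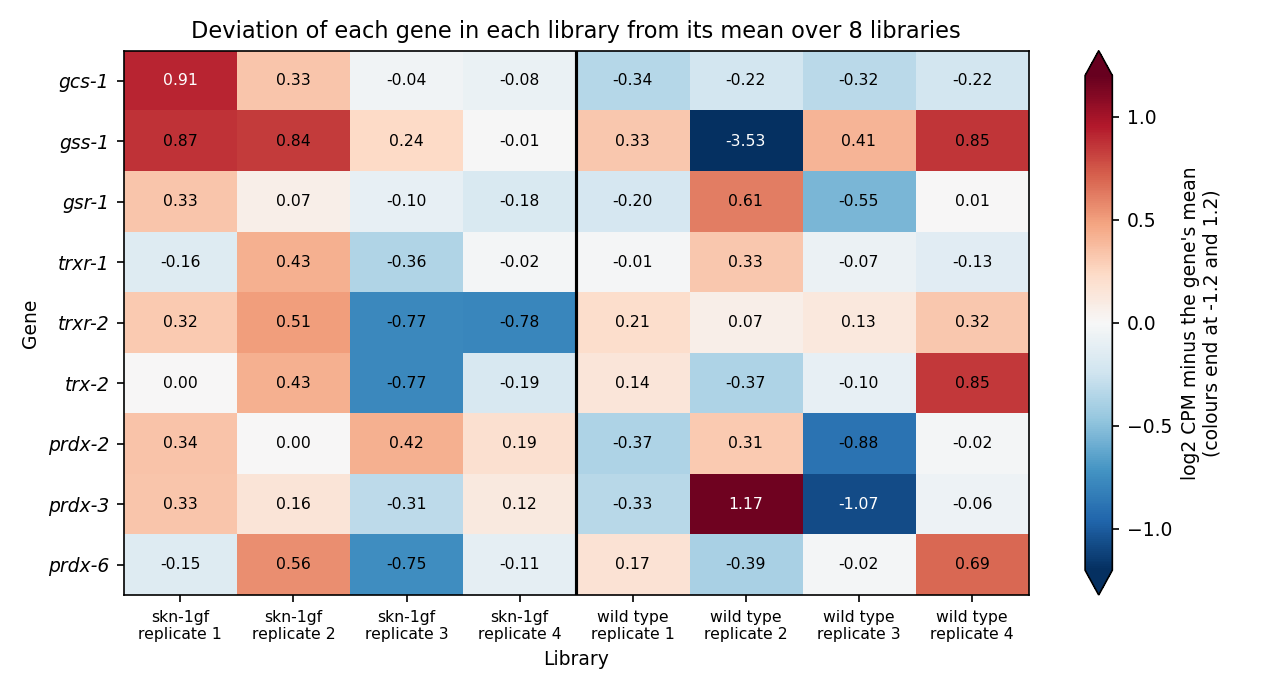
Deviation of log2 CPM from each gene's own mean over the 8 libraries (colour and printed value), for 9 redox enzyme genes (rows) in 4 skn-1gf and 4 wild-type libraries (columns, separated by a black line). Only the gcs-1 row is split by genotype, and the lowest value is that of gss-1 in wild-type replicate 2, at −3.53.

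The plot of deviations shows how the 9 genes varied between libraries of one genotype. In skn-1gf replicate 2 all 9 genes were above their own mean over the 8 libraries, and in replicate 1 there were 7, while replicates 3 and 4 had 2 each. In wild-type replicates 1 to 4 there were 4, 5, 2 and 5 of the 9. The median deviation was 0.33, 0.43, −0.31 and −0.08 log2 units in skn-1gf replicates 1 to 4, against −0.01, 0.07, −0.10 and 0.01 in wild-type replicates 1 to 4. Marker sums moved between the same libraries. In skn-1gf replicate 2 the 10 intestine markers summed to 1321 CPM where the other skn-1gf libraries had 14090 to 16860 CPM, and the wild-type libraries 3430 to 13940 CPM. Most of each intestine sum came from vit-2 and vit-6, at 623 and 655 CPM in skn-1gf replicate 2. In the other skn-1gf libraries vit-2 had 5986 to 7658 CPM and vit-6 6825 to 8904 CPM. The marker act-5 was less even, at 26.3 CPM in skn-1gf replicate 2 and 168 to 884 CPM in the other skn-1gf libraries. The 13 pan-neuronal markers summed to 255 CPM in skn-1gf replicate 2, against 756.5 to 1840 CPM in the other skn-1gf libraries and 395 to 1892 CPM in wild type. The 10 germline markers summed to 6107 CPM and the 3 coelomocyte markers to 332 CPM in skn-1gf replicate 2, both the highest of the skn-1gf libraries, where the others had 3619 to 5473 CPM and 131 to 258 CPM. The part of these cell types in the members' values was not tested.

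Linked genes of the same chemistry were drawn from 6 lists with 42 genes, of which 35 passed the low-count filter. None was called by edgeR (0% of all genes), and none had an unadjusted p under 0.05, beside 4.07% of all genes. None was separated between the genotypes, beside 1.01% of all genes with every skn-1gf library above and 1.15% with every skn-1gf library below. Of the 35 log2 fold changes, 18 were above 0 and 17 below, and the median was 0.03, beside 0.04 over all genes tested.

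**Figure D5:**
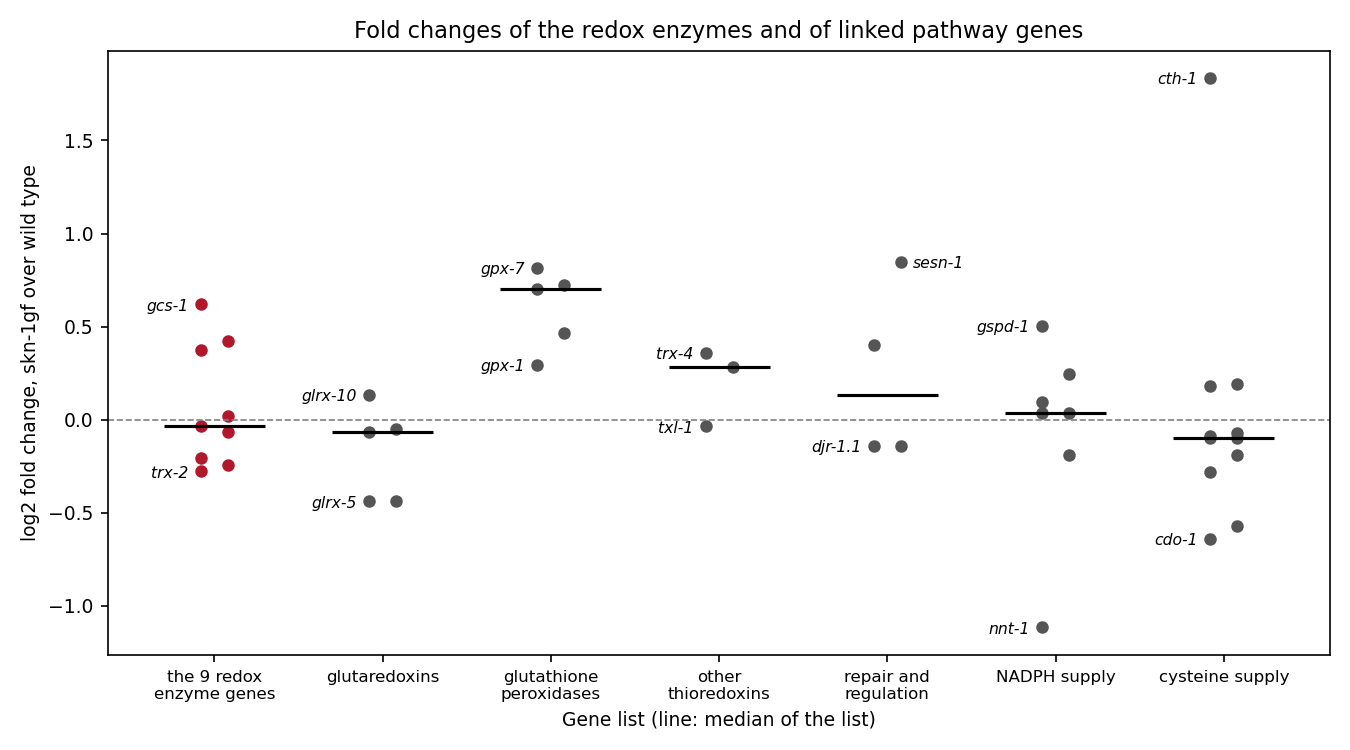
Log2 fold change of skn-1gf over wild type (vertical axis) for the 9 redox enzyme genes (red) and 35 linked genes in 6 lists (grey), with the lists along the horizontal axis; each point is a gene, lines are list medians, and the highest and lowest gene of each list is named. All 5 glutathione peroxidase genes tested lie above 0, beside 53.7% of all genes tested, and none of the genes shown passed the test.

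Glutathione peroxidases, which reduce peroxides and lipid peroxides, had 5 of 8 genes tested, all with positive log2 fold changes, beside 53.7% of all genes, and a median of 0.70. For gpx-5 levels were 72.3, 11.6, 103.9 and 31.1 CPM in skn-1gf replicates 1 to 4, against 37.4, 42.4, 20.2 and 32.6 CPM in wild-type replicates 1 to 4 (log2 fold change 0.72, SE 0.56). Its highest and lowest libraries were both skn-1gf, and without skn-1gf replicate 3 the log2 fold change was 0.21. The family member gpx-3 had 46.6, 0.135, 25.97 and 13.5 CPM in skn-1gf replicates 1 to 4, against 10.5, 17.4, 10.7 and 14.4 CPM in wild-type replicates 1 to 4. Its log2 fold change of 0.70 (SE 0.95) was 0.01 without skn-1gf replicate 1 and turned to −1.05 in limma-voom, and skn-1gf replicate 2 held a single count of it. The most abundant per coding length was gpx-2, a relative of the phospholipid hydroperoxide peroxidases, with means of 69.1 CPM in skn-1gf and 50.03 CPM in wild type (log2 fold change 0.47, SE 0.51, and 0.09 without wild-type replicate 2). In skn-1gf replicate 2, where gpx-3 and gpx-5 were lowest, intestine, muscle and pan-neuronal marker sums were also the lowest of the 8 libraries, and their part was not tested.

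Glutaredoxins, which use glutathione to reduce disulfides, had 1 positive and 4 negative log2 fold changes among 5 genes (median −0.07). The value for glrx-5, a mitochondrial family member involved in iron-sulfur cluster assembly, was −0.44 (SE 0.52), and −0.11 without wild-type replicate 2. For glrx-22 it was −0.44 (SE 0.58), and from −0.70 to −0.14 with single libraries left out. For glrx-10, the most abundant per coding length, the value was 0.13 (SE 0.39), with means of 27.1 CPM in skn-1gf and 24.8 CPM in wild type.

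The other thioredoxin-domain genes had 3 of 5 tested. They were dnj-27, for a thioredoxin-domain chaperone of the endoplasmic reticulum, at a log2 fold change of 0.28 (SE 0.45), trx-4 at 0.36 (SE 0.87) and txl-1 at −0.04 (SE 0.35). For trx-4 wild-type replicate 2 held 1 count where the other wild-type libraries held 119 to 380, and the log2 fold change was −0.05 without it. For trx-3 and trx-5 the filter was not passed. The gene trx-3 had 158 counts in wild-type replicate 2 and 0 to 29 in each of the other libraries.

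Repair and regulation genes had 4 of 5 tested, 2 in each direction. The sestrin gene sesn-1 had means of 42.9 CPM in skn-1gf and 23.8 CPM in wild type (log2 fold change 0.85, SE 0.71, and 0.41 without wild-type replicate 2). The methionine sulfoxide reductase gene msra-1, an enzyme recharged by thioredoxin, had means of 85.1 CPM in skn-1gf and 64.5 CPM in wild type (log2 fold change 0.40, SE 0.42). The glyoxalase gene glod-4, whose enzyme detoxifies methylglyoxal with glutathione, was at −0.14 (SE 0.39).

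Enzymes linked to NADPH supply had 5 positive and 2 negative log2 fold changes among 7 genes (median 0.04). The gene with the smallest p was nnt-1, for the mitochondrial transhydrogenase, with means of 3.89 CPM in skn-1gf and 8.52 CPM in wild type (log2 fold change −1.12, SE 0.76). It had 6 to 55 counts in skn-1gf libraries and 57 to 89 in wild-type libraries, the most in wild-type replicate 2. For gspd-1, the glucose-6-phosphate dehydrogenase gene, the means were 82.0 CPM in skn-1gf and 57.9 CPM in wild type (log2 fold change 0.50, SE 0.40). Once both libraries numbered 2 were dropped, the log2 fold change was −0.58 for nnt-1 and 0.14 for gspd-1. Transketolase tkt-1 was at −0.19 (SE 0.33), and idh-1, the isocitrate dehydrogenase gene and the most abundant of the list per coding length, was at 0.03 (SE 0.28).

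Genes of cysteine and methionine metabolism, which include genes that make and genes that use cysteine, had 3 positive and 8 negative log2 fold changes among 11 genes tested of 12 (median −0.10). The gene cth-1, for a cystathionine gamma-lyase, had 128, 14, 33 and 34 counts in skn-1gf replicates 1 to 4, against 24, 0, 41 and 32 counts in wild-type replicates 1 to 4. Scaled, this was 15.1, 1.89, 9.63 and 12.7 CPM in skn-1gf, against 2.55, 0, 5.82 and 2.59 CPM in wild type (log2 fold change 1.83, SE 1.11), with skn-1gf replicate 2 within the wild-type range. With single libraries left out its log2 fold change ran from 1.38 (without wild-type replicate 2) to 2.48 (without wild-type replicate 3). The related gene cth-2 of the same list was more abundant, with means of 130.5 CPM in skn-1gf and 115 CPM in wild type. Its log2 fold change was 0.18 (SE 0.36). In the other direction, metr-1, the methionine synthase gene, had means of 242.5 CPM in skn-1gf and 360 CPM in wild type (log2 fold change −0.57, SE 0.33, and −0.25 without wild-type replicate 2). The cysteine dioxygenase gene cdo-1 was at −0.64 (SE 0.56). The most abundant was ahcy-1, for S-adenosylhomocysteine hydrolase, with means of 935 CPM in skn-1gf and 1003 CPM in wild type (log2 fold change −0.10, SE 0.40, and 0.37 without wild-type replicate 2).

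The RNA of skn-1 itself was at 307 CPM in skn-1gf and 295 CPM in wild type (log2 fold change 0.06, SE 0.31). A gain-of-function allele need not change the RNA of its gene, so this does not check the labels. The sort marker gene daf-7 was at 36.1, 1.62, 34.1 and 9.36 CPM in skn-1gf replicates 1 to 4, against 7.98, 0.474, 7.52 and 2.27 CPM in wild-type replicates 1 to 4, lowest in the libraries numbered 2. In skn-1gf replicate 1, which was highest for gcs-1 and daf-7, the glutathione transferase gene gst-4, a known SKN-1 target, was also highest, at 151 CPM. It was at 33.1, 47.3 and 76.4 CPM in skn-1gf replicates 2 to 4 and at 7.61 to 14.5 CPM in wild type. The 3 genes did not go together in skn-1gf replicate 2. There gst-4 and daf-7 were lowest of the skn-1gf libraries, while gcs-1, at 117 CPM, was above replicates 3 and 4. The groups of gst-4 did not overlap, and its edgeR p ranked at position 1 among all genes tested. It did not pass the test (log2 fold change 2.87, SE 0.50, adjusted p = 0.999989 in edgeR).

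Over the 8 libraries, the genes whose log2 CPM followed gcs-1 most closely among the 12734 tested were ZK593.3 (Pearson r = 0.912), gst-1 (0.9003) and F23D12.7 (0.9003). The same libraries, scaled the same way, enter both sides of each value, and the genotype difference is part of it, so these are descriptions of 8 points with no test. Of these, gst-1, a glutathione S-transferase gene, was at 269.5, 222, 149 and 163 CPM in skn-1gf replicates 1 to 4, against 102, 95.6, 92.0 and 144 CPM in wild-type replicates 1 to 4. Its groups did not overlap, with skn-1gf replicate 3 close to wild-type replicate 4, and it did not pass the test (log2 fold change 0.89, SE 0.28, adjusted p = 0.999989 in edgeR). For trx-1 the closest genes were Y59H11AR.4 (0.968), nssp-78 (0.961) and dhs-31 (0.960). With at most 14 counts of trx-1 in a library, this likeness describes sparse counts.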

How the data were processed

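RNA-seq libraries of sorted cells from 4 skn-1gf and 4 wild-type populations were analysed from raw read counts per gene that the authors deposited, 1 file per library. The alignment tool STAR 2.7.6a, the counting tool HTSeq 2.0.2, and DESeq2 under R 3.5.2 are listed, with ce10 as build, per the submitters' processing notes. No annotation release, strand setting or duplicate handling is given in the sources used here. A RefSeq table of WBcel235 gave symbols for 46919 of the 46928 locus tags. Coding lengths (longest transcript) and exon overlaps came from Ensembl annotation of the same assembly. No coordinates are printed because that assembly differs from ce10. The 5 summary lines of each file were left out. Multiply aligned reads, 12.3 to 30.3% of all reads counted, were not assigned to genes.

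Counts were tested with edgeR 4.0.16 (glmQLFit, glmQLFTest) in R 4.3.3 on genotype alone, with TMM scaling, filterByExpr (minimum count 10, minimum total 15) and Benjamini-Hochberg adjustment over the 12734 genes kept, at a threshold of 0.05. CPM are counts scaled to the TMM-adjusted library size, and log2 CPM used a prior count of 2. The SE of a fold change came from the same model. A count of 0 was given an upper limit of 3 counts. Intervals and limits from counts cover counting error only. The fit was also run on simulated data with less spread than these libraries, which does not measure its power here. Alternatives were DESeq2 1.42.0, limma-voom (limma 3.58.1), other scalings and filters, protein-coding genes only, the replicate block and libraries left out.

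The members, gene lists and alternatives were chosen with earlier results of these data known. Named genes are the 10 members, skn-1, daf-7, up to 3 genes of each linked list with the smallest p and the most abundant per coding length, and the 3 genes most like gcs-1 and trx-1. The genes gst-4 and cth-2 were added after their values were seen.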

Additional observations from a re-analysis of the deposited data

Results flagged for a closer look

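Among the named genes, 1 library lay apart from the other 3 of its genotype (Dixon's test at 95%) in 4 of 75 groups of 4 libraries examined, and chance gives about 1 in 20. None was among the 10 redox enzyme genes. The peroxidase gene gpx-2 was at 9.17 CPM in wild-type replicate 2, where the others had 59.6 to 69.4 CPM. The thioredoxin-like gene txl-1 was at 89.4 CPM in skn-1gf replicate 2, where the others had 41.7 to 47.9 CPM. The isocitrate dehydrogenase gene idh-1 was at 134 CPM in skn-1gf replicate 2, where the others had 217 to 233 CPM. The gene nssp-78 was at 0.158 CPM in wild-type replicate 2, where the others had 2.75 to 2.84 CPM.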

How the results depend on the processing

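None of the redox enzyme genes tested (9, or 10 without a low-count filter) was called under any of 18 alternatives, of which 8 left out 1 library. Over all genes, edgeR called 0, and 518 had an unadjusted p under 0.05, while DESeq2 called 6, limma-voom 0, and edgeR without a low-count filter 159 of the 24642 genes it then tested. The count of members with every skn-1gf library above every wild-type library was 1 (gcs-1), 0 with total-count scaling, 2 with both libraries numbered 2 left out, and 1 to 2 with single libraries left out, the second gene being prdx-2. With libraries left out, separation is easier by chance, and the share of all genes separated in those settings was not counted. The cause of these changes in the count was not tested. The filter of 1 CPM in 4 libraries kept 13556 genes, more than the main filter. With the replicate number as a block no member was called and gcs-1 was at 0.56. The deviations of same-numbered libraries correlated at −0.0139, 0.0639, 0.513 and 0.0588 for numbers 1 to 4, and not every library correlated best with its own number. The value for number 3 was the highest of all pairs across genotypes. The labels do not say whether equal numbers were processed together, so a pairing is neither shown nor excluded.

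Signs of some log2 fold changes turned, with no cause tested. With the replicate block prdx-3 was at 0.16 and ahcy-1 at 0.0563. With total-count scaling gsr-1 was at −0.0340, skn-1 at −0.0115 and idh-1 at −0.0739. In limma-voom prdx-3 was at 0.19, gpx-3 at −1.05, txl-1 at 4.3e-05 and ahcy-1 at 0.0237. With both libraries numbered 2 left out gss-1 was at −0.14, prdx-3 at 0.49, trx-4 at −0.18, tkt-1 at 0.29 and ahcy-1 at 0.52. With single libraries left out the ranges were −0.0257 to 0.71 for gss-1, −0.13 to 0.26 for gsr-1, −0.22 to 0.10 for trxr-1, −0.51 to 0.0280 for trx-2, −0.32 to 0.52 for prdx-3, −0.50 to 0.0290 for prdx-6, −0.0814 to 0.31 for skn-1, −0.0542 to 0.78 for trx-4, −0.37 to 0.13 for txl-1, −0.42 to 0.0480 for glod-4, −0.36 to 0.19 for tkt-1, −0.0694 to 0.20 for idh-1 and −0.30 to 0.37 for ahcy-1. Low counts limit trx-1, with 0 to 14 counts in a library.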

Other observations

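Wild-type replicate 2, the library apart on the first principal component, differed from the other wild-type libraries in both directions within this pathway. Ribosomal RNA genes took 32.8% of its gene counts, against 8.62 to 11.6% in the other wild-type libraries, and 11909 genes had a count, against 16728 to 20394. Its TMM factor was 0.658, and its 6 hypodermis markers summed to 824.5 CPM, against 131 to 157 CPM. Most of that sum came from rol-6, dpy-5 and dpy-13, at 296, 271 and 121 CPM. The marker lin-26 was not raised, at 120 CPM against 107 to 123 CPM in the other wild-type libraries. The part of these library differences in the values below was not tested. The genes named were chosen after their values were seen, and nothing was tested. It was low for gss-1 (2.69 CPM, against 42.6 to 61.5 CPM in the other wild-type libraries) and for the thioredoxin gene trx-4 (0.158 CPM, against 16.9 to 30.8 CPM). The sestrin gene sesn-1 was at 1.90 CPM there, against 23.4 to 44.4 CPM in the others, and gspd-1, whose enzyme makes NADPH, at 20.2 CPM, against 63.7 to 80.9 CPM. It was high for prdx-3 (238 CPM, against 50.2 to 102 CPM), for tkt-1 (484 CPM, against 173 to 259 CPM) and for ahcy-1 (1863 CPM, against 552 to 836 CPM). It also held 158 counts of trx-3, a thioredoxin gene known from the C. elegans intestine, against 2 to 29 in the other wild-type libraries.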
